A study of Mus musculus with 11 samples.

Results

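The neuromuscular junction is the synapse at which a motor nerve drives a muscle fibre, and the genes described here are 10 that encode its receptor, its clustering machinery and its esterase: Chrna1, Chrnb1, Chrnd, Chrne, Musk, Lrp4, Rapsn, Dok7, Colq and Ache. They were taken by symbol from the 2 expression tables, and all 10 were found in both, among 13121 genes listed for soleus and 12366 for quadriceps. RNA of whole mouse muscle was sequenced in 11 libraries from animals 2.5 months old. Soleus, a postural muscle rich in slow fibres, gave 3 control and 4 Myc-labelled libraries, and the muscle labelled Quad, the mostly fast quadriceps, gave 2 control and 2 Myc-labelled ones. The Myc-labelled animals took doxycycline overnight to raise Myc and were killed 12 hours after the drug was withdrawn, while the controls are described only as matched for age. Neither the promoter that drives the inducible Myc, nor the genotype of the controls, nor whether they took doxycycline is given in the sources used here.

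At this synapse, acetylcholine released by the nerve opens a receptor made of alpha, beta, delta and epsilon subunits; in fetal and denervated muscle a gamma subunit takes the place of epsilon. Agrin from the nerve binds Lrp4, which activates the receptor kinase MuSK; Dok-7 binds and activates MuSK from inside the fibre, and rapsyn ties the receptors into clusters. Acetylcholinesterase, anchored in the synaptic cleft by the collagen tail ColQ, ends each signal. Transcription of many of these genes is concentrated in the few nuclei that lie beneath the nerve terminal, through GABP, which binds an ETS-type element (the N-box), while myogenic factors bind E-boxes in the same genes and Myc binds one form of E-box.

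The promoters of 4 of the genes are printed because Ache, Chrnb1 and Musk carry the values described next, Chrne marks the adult receptor, and their elements differ. RefSeq's table of start sites (GRCm38.p6) held 7 windows for 6 of the 10 genes, Chrna1, Chrnb1, Chrne, Musk, Dok7 and Ache. The 250 bases before each start were searched on both strands for CANNTG, the general E-box; for CACGTG and CAGCTG, each of which is also a CANNTG; and for CCGGAA, the N-box core. Capitals mark every match, and positions are counted back from the start of transcription. The windows lie at chr5:137288004-137288253 (plus strand) for Ache, chr11:69795938-69796187 (minus strand) for Chrnb1, chr11:70619195-70619444 (minus strand) for Chrne and chr4:58285712-58285961 (plus strand) for Musk.
Ache: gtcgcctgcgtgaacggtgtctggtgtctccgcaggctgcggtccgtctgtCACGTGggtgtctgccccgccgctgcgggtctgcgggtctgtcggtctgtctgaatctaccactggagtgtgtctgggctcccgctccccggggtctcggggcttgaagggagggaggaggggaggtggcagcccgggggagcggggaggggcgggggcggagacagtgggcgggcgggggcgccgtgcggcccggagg
Chrnb1: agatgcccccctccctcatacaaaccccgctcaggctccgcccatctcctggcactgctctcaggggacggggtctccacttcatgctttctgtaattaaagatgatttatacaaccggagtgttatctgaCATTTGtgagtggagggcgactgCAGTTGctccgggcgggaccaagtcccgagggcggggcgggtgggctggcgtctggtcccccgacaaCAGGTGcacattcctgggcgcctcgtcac
Chrne: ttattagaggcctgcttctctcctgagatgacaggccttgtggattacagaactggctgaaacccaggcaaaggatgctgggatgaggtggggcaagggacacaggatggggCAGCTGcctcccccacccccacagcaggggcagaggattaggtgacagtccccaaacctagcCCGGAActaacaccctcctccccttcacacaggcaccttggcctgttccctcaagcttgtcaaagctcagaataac
Musk: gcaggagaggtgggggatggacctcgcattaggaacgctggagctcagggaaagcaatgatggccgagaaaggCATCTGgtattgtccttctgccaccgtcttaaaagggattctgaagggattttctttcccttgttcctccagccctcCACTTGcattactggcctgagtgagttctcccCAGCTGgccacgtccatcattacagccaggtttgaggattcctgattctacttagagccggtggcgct
Ache was the only one of the 6 genes with CACGTG, the form Myc binds best, at -199 to -194; 6.02% of all 32851 windows in the table hold that motif. Chrne alone had CCGGAA, at -76 to -71 on the printed strand, against 12.0% of all windows. CAGCTG stood in 3 genes, at -138 in Chrne, -68 in Musk, and -92 and -44 in Chrna1, against 13.0% of windows. CANNTG stood in all 6 genes, in 6 of their 7 windows, against 66.2% of all windows. A match describes the letters only.

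Levels are normalised reads per gene. The deposited values have the form of reads divided by 1 factor per library, from which depth was estimated at 11.1 to 14.9 M reads in soleus and 14.2 to 18.4 M in quadriceps. Changes are log2(value + 1), Myc-labelled minus control, from limma fitted over all genes of a muscle, and a gene is called at a Benjamini-Hochberg adjusted p under 0.05. Fewer cells of a type and less RNA per cell cannot be told apart in whole muscle. The Myc row itself did not mark the Myc-labelled libraries: it held 28.2 to 54.3 in soleus controls against 26.3 to 31.0 (log2 change -0.33, limma adjusted p = 0.69), and in quadriceps 114 and 55.7 against 86.4 and 33.6 (-0.55, adjusted p = 0.93). Every direction below is therefore drawn from the labels. As a check of the tissue, muscle fibre markers held 124700 to 137200 ppm of the table total in soleus controls. Myc-labelled soleus libraries held 115100 to 122300, each below every control. Quadriceps libraries held 154700 to 180600, and none of the 12 markers stood at 0 in either muscle. Slow fibre genes held 1651 and 12960 ppm in the quadriceps controls and 144.5 and 334 in the Myc-labelled ones, against 42100 to 52930 in soleus.

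In soleus, 9 of the 10 genes lay below control on average and none passed the test over all genes. Their median log2 change was -0.23, against -0.03 over the 12745 genes tested, of which 54.4% lay below 0. The muscle fibre markers had nearly the same median, -0.22, with 10 of 12 below control. Under library-size or TMM scaling 8 of the 10 lay below control, Lrp4 changing side. The lowest were Ache, Chrnb1, Chrne and Colq, at -0.57, -0.53, -0.50 and -0.49, and the highest was Rapsn at 0.05. By limma 0 of 10 were called, where 9.29% of all genes were (7.06% higher, 2.23% lower); limma-voom on estimated reads also called 0. At an unadjusted p under 0.05 there were 3, Ache, Chrnb1 and Colq, all lower, against 21.7% of all genes at that threshold (12.9% higher, 8.77% lower). Groups did not overlap for 2, Ache and Chrnb1, both lower, against 8.35% of all genes lower and 12.7% higher.

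**Figure D1:**
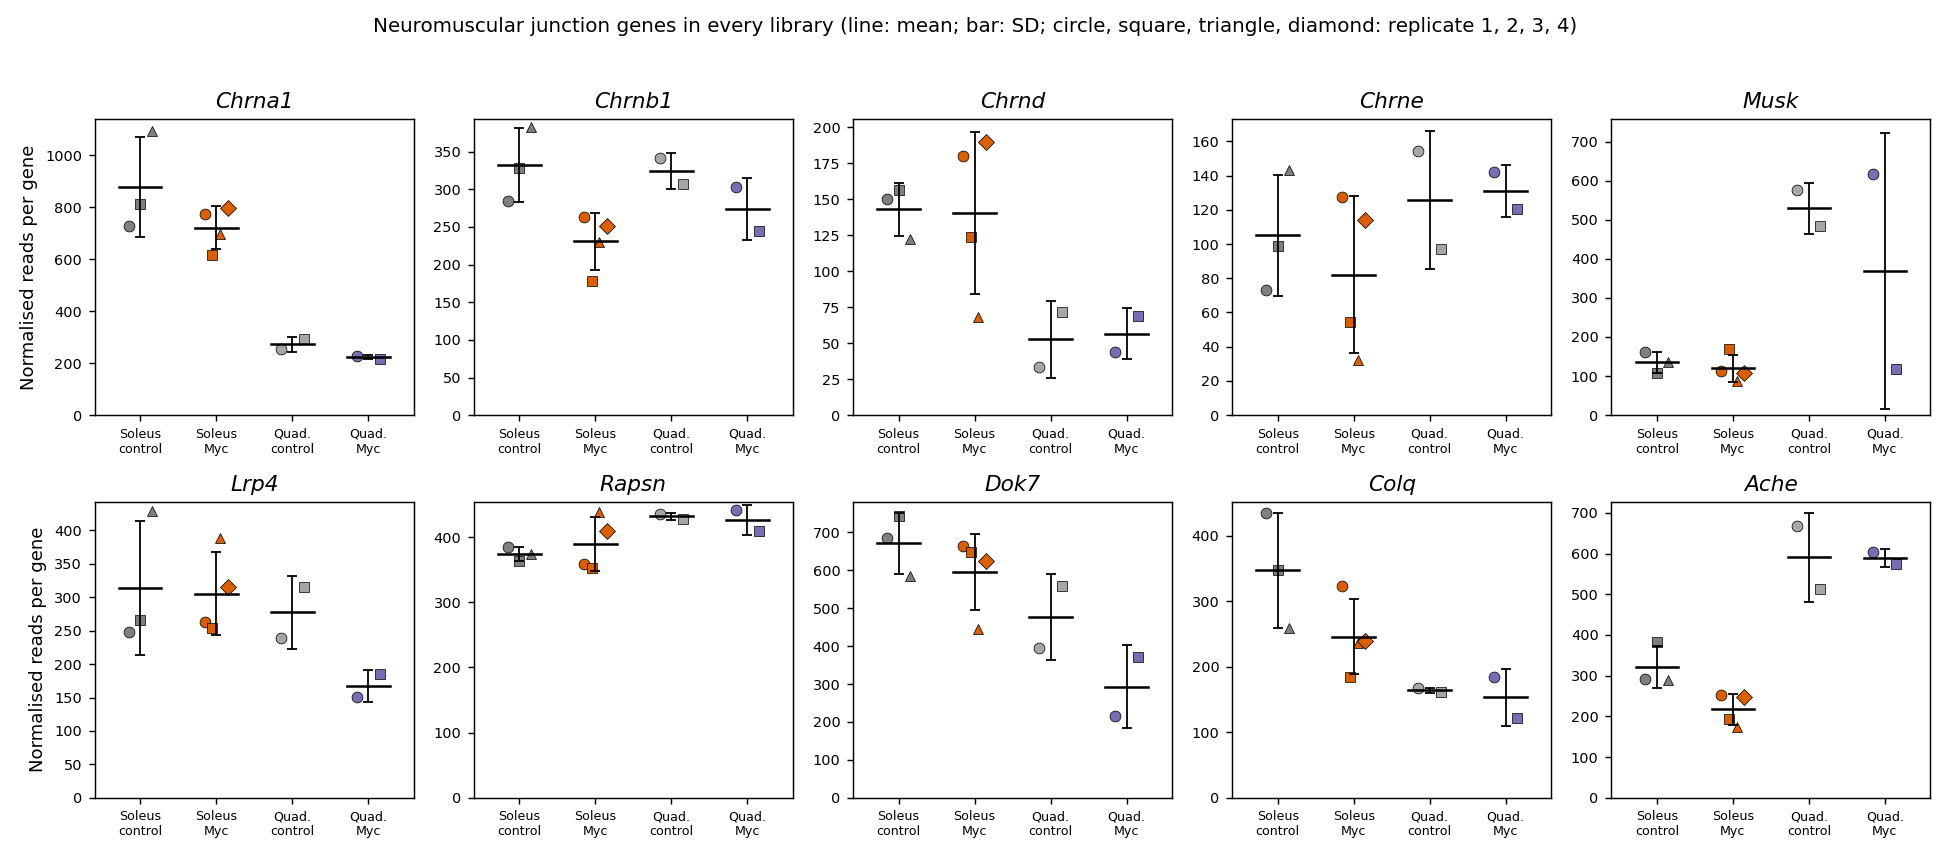
Normalised reads (y axis, from 0) of each of the 10 genes in every library, by muscle and group (x axis); horizontal lines are means, bars SD, and symbols mark replicates 1 to 4. The 4 Myc-labelled soleus libraries lie below all 3 controls for Chrnb1 and Ache, and Musk stands at 118 in 1 Myc-labelled quadriceps library against 484 to 618 in the other 3.

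Among the receptor subunits, Chrnb1 separated the soleus groups. It held 285, 328 and 383 in controls and 264, 178, 230.3 and 251 in Myc-labelled libraries. Every Myc-labelled library was lower than every control, though replicate 1 and the lowest control differed by little. The change was -0.53 (SE 0.17, 95% interval -0.89 to -0.16; limma adjusted p = 0.073). The beta subunit it encodes is shared by the fetal and the adult receptor and is the one through which agrin signalling links receptors to the cytoskeleton.

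Chrna1 encodes the alpha subunit, present in a pair in each receptor and carrying most of the acetylcholine-binding site. Its values were 727, 811 and 1094 in soleus controls and 775, 614, 695 and 798 in Myc-labelled libraries. The ranges overlapped, with control replicate 3 well above the rest. The log2 change was -0.27 (95% interval -0.57 to 0.03; limma adjusted p = 0.29).

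The delta and epsilon subunits varied more between replicates than between groups. Chrnd held 150.2, 156 and 122 in soleus controls and 180.1, 124, 67.9 and 190.0 in Myc-labelled libraries. Its change was -0.12 (95% interval -0.79 to 0.54; adjusted p = 0.87) and turned to 0.19 without Myc-labelled replicate 3. Chrne, whose product distinguishes the adult receptor, held 73.3, 98.9 and 143 in controls and 128, 54.4, 32.2 and 114 in Myc-labelled libraries. Its coefficient of variation was 56.0% within the Myc-labelled group, the highest of the 10 genes in soleus, and the change of -0.50 had a 95% interval from -1.50 to 0.49 (adjusted p = 0.57). Replicate 3 was the lowest Myc-labelled library for both genes.

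Chrng, the fetal gamma subunit, is no member of the group but is the counterpart of Chrne. In soleus it held 24.7, 11.6 and 32.9 in controls and 8.76, 9.21, 5.76 and 4.95 in Myc-labelled libraries, that is 12 to 28 estimated reads against 5 to 11. All 4 Myc-labelled libraries were lower, but the gene passed the filter of 10 in 3 libraries only through the controls, so that the groups had to differ. The log2 change was -1.48 (95% interval -2.93 to -0.03; adjusted p = 0.22). The ratio of Chrng to Chrne reads was 0.337, 0.118 and 0.23 in controls and 0.0687, 0.169, 0.179 and 0.0435 in Myc-labelled libraries, and these ranges overlapped. Chrng was not among the genes listed for quadriceps, so it has no value there.

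Per kb of each gene's principal GENCODE M21 transcript, the subunits were far from equal. In soleus controls the levels per kb were 200.1 ± 43.9 for Chrna1, 154 ± 22.9 for Chrnb1, 66.1 ± 22.2 for Chrne, 48.8 ± 6.22 for Chrnd and 8.30 ± 3.85 for Chrng (SD, n = 3). The ranges of Chrne and Chrnd overlapped, as did those of Chrna1 and Chrnb1. In quadriceps controls the order was Chrnb1 at 150.5 ± 11.03, Chrne at 79.1 ± 25.4, Chrna1 at 62.3 ± 6.51 and Chrnd at 18.0 ± 9.14 (SD, n = 2), with Chrne and Chrna1 overlapping. By mean, the alpha subunit gene came first in soleus and after beta and epsilon in quadriceps. Given these overlaps, its places next to beta in soleus and epsilon in quadriceps are not settled. In quadriceps the ranges of alpha and beta did not overlap.

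**Figure D2:**
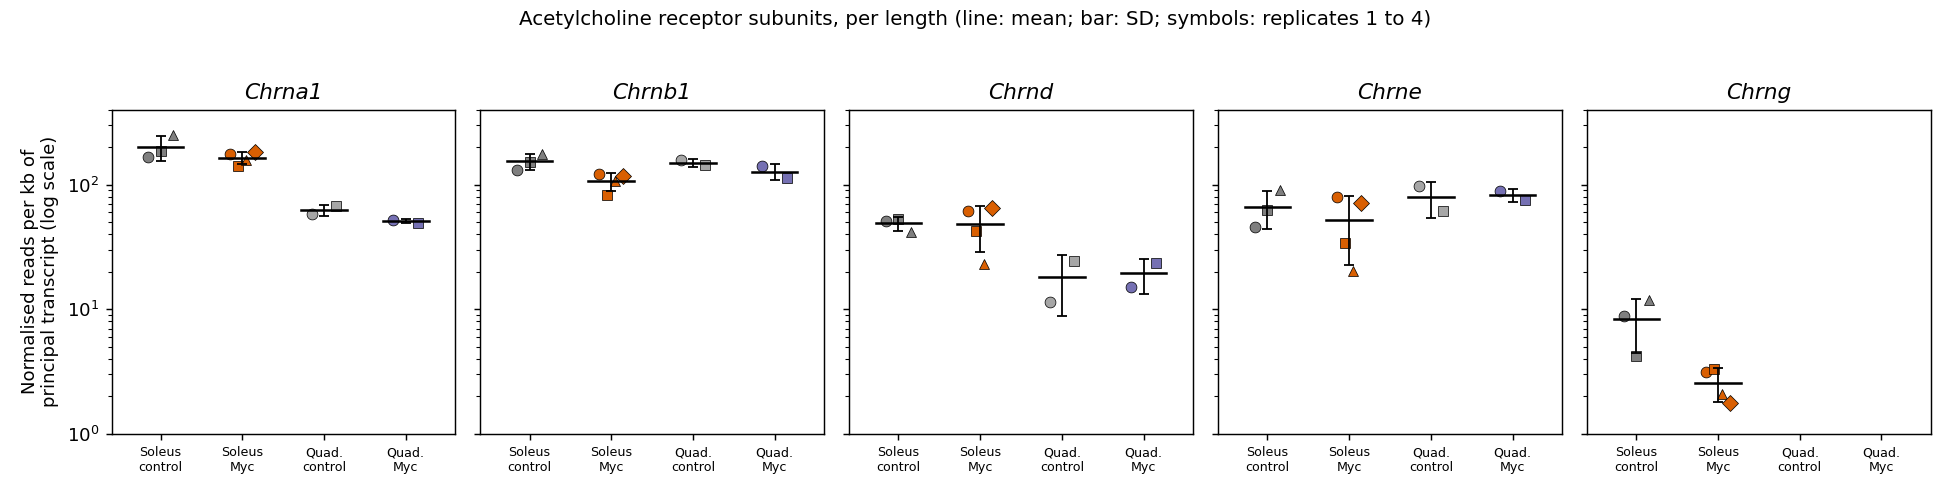
Normalised reads per kb of principal transcript (log scale, y axis) of the 4 adult receptor subunits and fetal Chrng in each library, by group (x axis); lines are means, bars SD. On average Chrna1 and Chrnd stand higher in soleus than in quadriceps, and Chrnb1 and Chrne at similar heights. The muscles overlap for Chrnd, with soleus Myc-labelled replicate 3 at 23.2 and quadriceps control replicate 2 at 24.4. Chrng, listed for soleus only, lies lowest there. The 2 muscles were normalised apart.

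The clustering pathway showed no shift in soleus beyond its spread. Rapsn, the receptor-clustering protein's gene, was the steadiest of the 10, with 385, 364 and 373 in controls and 358, 353, 439 and 409 in Myc-labelled libraries. Its change was 0.05 (95% interval -0.23 to 0.34; limma adjusted p = 0.86). Musk held 161, 109 and 136 against 113, 169.9, 87.5 and 109, a change of -0.20 (adjusted p = 0.70). For both genes the Myc-labelled range enclosed the control range.

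Lrp4, the agrin receptor, held 247, 266 and 428 in soleus controls and 263, 254, 389 and 315 in Myc-labelled libraries. Its log2 change of -0.02 (SE 0.20; adjusted p = 0.98) was the nearest to 0 of the 10, and was 0.029 when libraries were scaled to equal totals. Dok7 held 686, 744 and 585 against 664, 648, 446 and 624, with a change of -0.18 (adjusted p = 0.50). Replicate 3 was again the lowest Myc-labelled library for Dok7, while for Lrp4 and Rapsn it was the highest.

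Ache, the esterase gene, had the smallest p of the group in soleus. It held 292, 382 and 290.0 in controls and 252, 194, 175 and 247 in Myc-labelled libraries. The Myc-labelled mean was 217 ± 38.5 (SD, n = 4) against 321 ± 52.8 (SD, n = 3), and no library crossed over. The log2 change was -0.57 (SE 0.18, 95% interval -0.95 to -0.19), with a limma adjusted p of 0.059. In 1 fit over all 11 libraries the same change had an adjusted p of 0.0485, and without control replicate 2, the highest library, it was -0.44 with an adjusted p of 0.278. In the remaining alternatives that keep the groups unpaired it ran from 0.0502 to 0.179.

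Colq encodes the collagen that anchors the esterase. It held 436, 347 and 259 in soleus controls and 324, 185, 236 and 239 in Myc-labelled libraries. Replicate 1 lay inside the control range and the other 3 Myc-labelled libraries below it. The change was -0.49 (SE 0.21, 95% interval -0.93 to -0.06; limma adjusted p = 0.17). Prima1 encodes a membrane anchor of the esterase. Its values were 17.7, 16.5 and 0 in controls and 4.87, 1.67, 24.2 and 8.91 in Myc-labelled libraries. These were too low and scattered to order the groups (limma adjusted p = 0.95).

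Other genes of the synapse gave 2 calls in soleus. Of 46 tested, from a list of 50 for the postsynaptic membrane, its basal lamina and its signals, 0 rose and 2 fell, where 7.06% of all genes were called higher and 2.23% lower; 37 lay below control, Chrng among them, against 54.4% of all genes, with a median log2 change of -0.14. Camk2d, a calcium- and calmodulin-dependent kinase subunit, fell from 762 ± 42.9 to 513 ± 9.86 (SD; log2 change -0.57, limma adjusted p = 0.0025). Dtna, which encodes dystrobrevin alpha of the postsynaptic dystrophin complex, fell from 1195 ± 45.2 to 936 ± 93.7 (-0.36, adjusted p = 0.044). The call of Dtna was lost under library-size scaling (adjusted p = 0.11) and without any 1 soleus library other than Myc-labelled replicate 2 (0.067 to 0.17). Over all alternatives its limma adjusted p reached 0.276, and its smallest log2 change was -0.24. The call of Camk2d was lost under no alternative. Erbb3, a neuregulin receptor that Schwann cells also express, stood at -0.59 (limma adjusted p = 0.057). Phldb2, a cortical scaffold protein at the synapse, stood at -0.66 (adjusted p = 0.060). Groups did not overlap for either gene. Of the 46, 7 were lower without overlap, Chrng among them, and 1 was higher, against 8.35% and 12.7% of all genes. Leaving out 1 library moved the adjusted p to between 0.038 and 0.311 for Erbb3 and between 0.048 and 0.185 for Phldb2.

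Genes known to rise when muscle loses its nerve lay mostly below control in soleus. Of 20 tested from a list of 22, 17 were below 0, against 54.4% of all genes, with a median of -0.31; these 17 include Chrng, which had to be lower to pass the filter as it did. Of the 20, 1 fell, where 2.23% of all genes were called lower, and 0 rose. The one that fell was Gadd45a, a growth arrest gene raised by denervation, from 219 ± 79.2 to 97.7 ± 37.1 (SD; log2 change -1.17, limma adjusted p = 0.022). Its call was lost without control replicate 3 (log2 change -0.89, adjusted p = 0.107), without Myc-labelled replicate 2 (0.060) or 4 (0.064), and in 1 fit over all libraries (0.054). Myh8, a perinatal myosin gene, held 59.2 to 85.7 in controls and 26.7 to 58.8 in Myc-labelled libraries (adjusted p = 0.22). The summed level of the list overlapped between groups, at 988.8 to 1109 ppm in soleus controls and 977.9 to 1327 in Myc-labelled libraries. In quadriceps 13 of 17 tested lay below control, against 54.2% of all genes, with a median of -0.33. Of these 17, 0 were called, where 0.00815% of all quadriceps genes were.

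Markers of other cells and of fast fibres varied across the same soleus libraries, with summed levels that overlapped between the groups. All 16 Schwann cell markers were detected in every library; 15 lay above control on average and 0 were called, with a median log2 change of 0.53, and their summed level was 175.3 to 251.4 ppm in controls and 214.5 to 504.3 in Myc-labelled libraries, highest in replicate 2. Tendon and myotendinous markers were below control in 9 of 10 genes, with summed levels of 636.7 to 781.4 in controls and 685.8, 614, 197.3 and 334.8 in Myc-labelled replicates 1 to 4. Fibroblast markers were below control in 10 of 10, with 1 called lower (1246 to 1741 ppm against 546 to 1588). Fast fibre genes were below control in 15 of 15, with 2 called lower (57730 to 61020 against 40540 to 58470). Of all genes tested in soleus, 54.4% lay below control, 2.23% were called lower and 7.06% higher. Replicate 3, lowest in tendon markers, was also lowest for 5 of the 10 synaptic genes, and replicate 2, highest in Schwann markers, for 4. The part of these cells in the synaptic values was not tested; without replicates 3 and 4 the median of the 10 genes was -0.26 and Ache stood at -0.52 (adjusted p = 0.18).

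**Figure D3:**
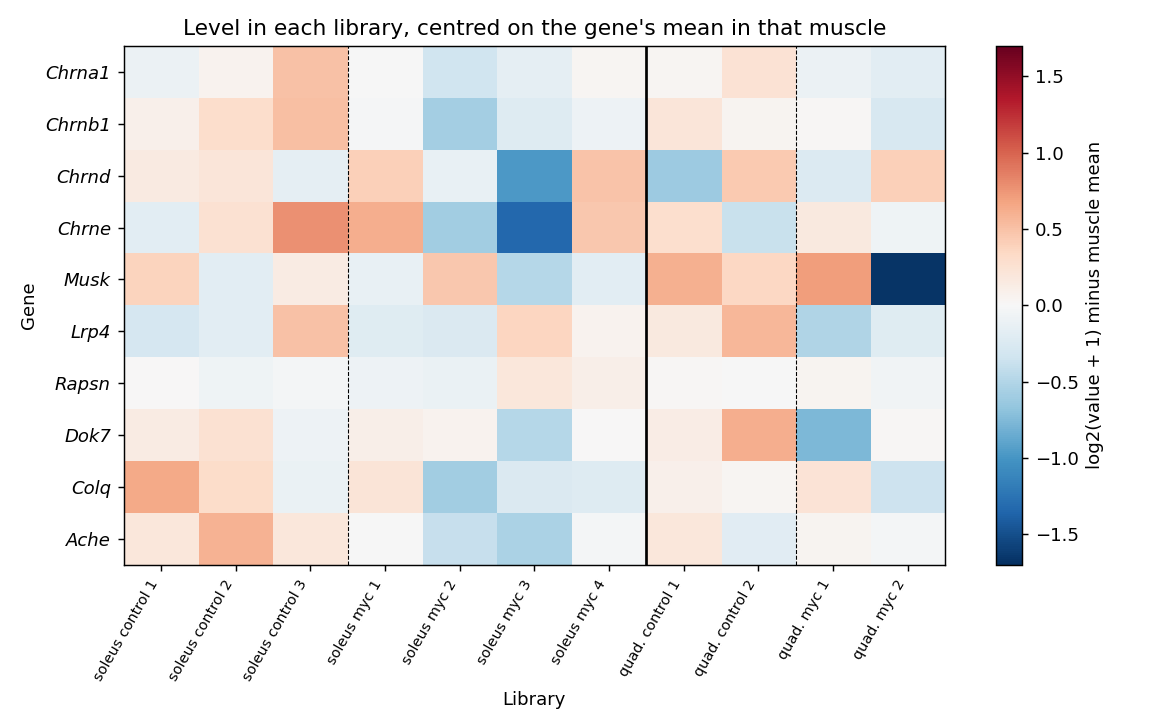
Level of each of the 10 genes (rows) in each of the 11 libraries (columns), as log2(value + 1) minus the gene's mean in that muscle; red is higher, blue lower. Soleus Myc-labelled replicates 2 and 3 hold most of the blue in soleus, and the deepest blue is Musk in quadriceps Myc-labelled replicate 2.

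In quadriceps, 7 of the 10 genes lay below control and none was called. Their median log2 change was -0.19, against -0.03 over 12270 genes, of which 54.2% lay below 0. By limma 0 of 10 were called, where 0.00815% of all genes were; at an unadjusted p under 0.05 there was 1, Lrp4, against 6.21% of all genes (3.97% higher, 2.24% lower), and limma-voom called 0, with 2 at that threshold. The groups of 2 did not overlap for 4 genes, Chrna1, Chrnb1, Dok7 and Lrp4, all lower, against 16.9% of all genes lower and 18.3% higher. Under library-size scaling 6 of the 10 lay below control, Rapsn changing side.

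Lrp4 and Dok7, the receptor for agrin and the cytoplasmic activator of MuSK, had the smallest p of the group there. Lrp4 held 239 and 316 in controls and 150.2 and 185 in Myc-labelled libraries, a log2 change of -0.72 (SE 0.23, 95% interval -1.27 to -0.17; limma adjusted p = 0.62). Dok7 held 396 and 558 against 215 and 370.1, a change of -0.73 (SE 0.31; adjusted p = 0.80). Both Myc-labelled libraries were below both controls for each gene. Slow fibre genes put the same libraries in the same order, at 1651 and 12960 ppm in controls and 144.5 and 334 in Myc-labelled libraries. The part of fibre type in the Lrp4 and Dok7 values was not tested. Without Myc-labelled replicate 2, which leaves a single library assumed to vary like the controls, Dok7 stood at -1.12 with an adjusted p of 0.031.

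Musk was split within the Myc-labelled quadriceps. It held 576 and 484 in controls, 618 in Myc-labelled replicate 1 and 118 in replicate 2. Replicate 2 was thus the only quadriceps library far from the others, and replicate 1 was the highest. The change of -0.96 (95% interval -4.18 to 2.26; limma adjusted p = 0.94) was 0.23 without replicate 2 and -2.15 without replicate 1, where a single library gave an adjusted p of 0.00012. Slow fibre genes were low in both Myc-labelled libraries, with 12 of 12 below control, against 54.2% of all genes. Of these 12, 0 were called, where 0.00815% of all quadriceps genes were. Tendon markers held 56 ppm in replicate 1, with 1 of 10 at 0, and 330.6 in replicate 2. The 8 Schwann markers listed for quadriceps held 45.1 and 94.2. The part of these lists in the Musk value was not tested.

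The other quadriceps values lay close together. Chrna1 held 253 and 293 in controls and 229 and 217 in Myc-labelled libraries (-0.29), and Chrnb1 341 and 308 against 302 and 245 (-0.25), with limma adjusted p = 0.89 and 0.90. Ache held 668 and 513 against 605 and 573, a change of 0.01 (95% interval -0.42 to 0.44). Rapsn held 435 and 428 against 442 and 409.6, a change of -0.02 that was 0.042 under library-size scaling. Groups overlapped for both of these genes.

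Chrnd held 33.7 and 71.5 in quadriceps controls and 44.2 and 69.1 in Myc-labelled libraries, Chrne 154 and 97.2 against 142 and 120.4, and Colq 167 and 161 against 184 and 122. In each of the 3 the spread within a group exceeded the difference between groups. Of 45 other synaptic genes tested 0 were called, where 0.00815% of all quadriceps genes were. Prima1 held 60.3 and 46.5 in controls against 82.3 and 126 in Myc-labelled libraries (log2 change 0.93, limma adjusted p = 0.73). Utrn, the synaptic relative of dystrophin, held 543 and 625 against 330.1 and 503 (-0.51, adjusted p = 0.81).

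**Figure D4:**
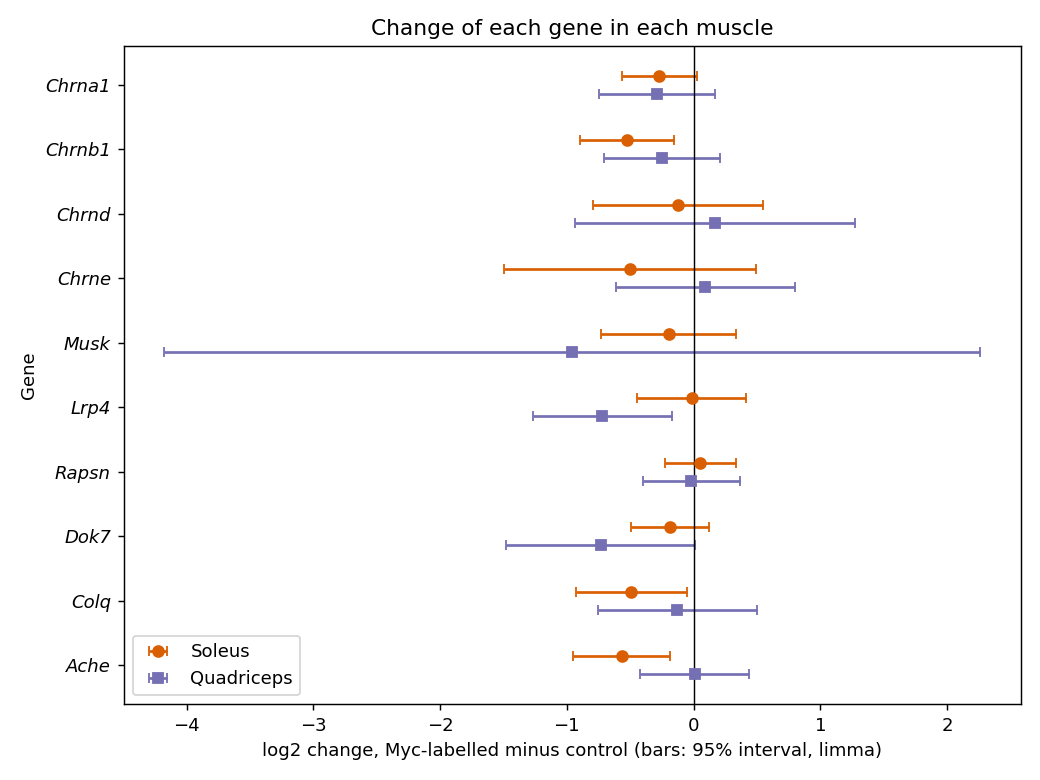
log2 change of each of the 10 genes, Myc-labelled minus control (x axis), in soleus (circles) and quadriceps (squares); bars are 95% intervals from limma. The soleus intervals of Chrnb1, Colq and Ache and the quadriceps interval of Lrp4 lie wholly below 0, and that of Musk in quadriceps runs from -4.18 to 2.26.

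Whether a gene's change differed between muscles was tested in 1 fit over 11 libraries, as soleus change minus quadriceps change. By limma 0 of 10 genes passed, as did 0% of 11971 genes, and 0 had an unadjusted p under 0.05, where 3.18% of all genes did (2.59% higher, 0.593% lower); limma-voom also called 0, with 1 at that threshold. The nearest was Ache, with a difference of -0.58 (95% interval -1.16 to 0.01; adjusted p = 0.999), lower in soleus and level in quadriceps. Next came Lrp4 at 0.70 (-0.04 to 1.44) and Dok7 at 0.55 (-0.16 to 1.27), both lower in quadriceps and nearer to 0 in soleus. Chrna1 had nearly the same change in both muscles, -0.27 and -0.29, a difference of 0.02 (-0.50 to 0.54).

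Set side by side without a test, since the tables were normalised apart, the muscles' controls differed most for Chrna1, Musk and Chrnd. As ppm of the table total Chrna1 held 67.1 ± 15.01 in soleus (SD, n = 3) and 17.3 ± 2.74 in quadriceps (SD, n = 2), and Chrnd 10.9 ± 1.35 and 3.36 ± 1.87. Colq stood at 26.6 ± 6.63 and 10.4 ± 0.304, and Dok7 at 51.3 ± 6.01 and 30.3 ± 8.85. In the opposite direction Musk held 10.3 ± 1.98 in soleus and 33.3 ± 2.28 in quadriceps, and Ache 24.6 ± 4.01 and 37.1 ± 4.92. None of these 6 ranges overlapped between the muscles' controls, while those of Chrne, Lrp4 and Rapsn did. Rapsn held 28.6 ± 0.788 and 27.2 ± 1.15, and Chrnb1 25.4 ± 3.87 and 20.4 ± 0.396, just apart. The Musk level of quadriceps Myc-labelled replicate 2, 8.25 ppm, lay within the range of the soleus libraries, 6.54 to 13.9. In that library Chrna1 at 15.1 ppm, Chrnd at 4.81, Colq at 8.52 and Dok7 at 25.8 lay below every soleus library. Ache, at 39.9 ppm there, lay above every soleus library.

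By level per kb, Dok7 and Rapsn led in soleus controls, at 242 ± 29.0 and 233 ± 6.72, and their ranges overlapped. Ache and Rapsn led in quadriceps controls, at 270.2 ± 50.4 and 269 ± 3.18, which also overlapped. Lrp4, a large receptor gene, was last in soleus at 39.6 ± 12.6, not apart from Musk at 40.4 ± 7.80, and Chrnd was last in quadriceps. With merged exons in place of the principal transcript, Ache went from the first to the fourth place in quadriceps, and Dok7 from the first to the third in soleus, at 157 behind Rapsn at 208 and Chrna1 at 200.1, so both ranks depend on the length used.

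The genes whose profile was most like the mean of the 10, each centred on its muscle, were Itga1, an integrin subunit, at Pearson's r = 0.942 over 11 libraries, then Mapre2 (0.932), Fkbp2 (0.917), Anxa7 (0.907) and Rit1 (0.907), of 11961 genes ranked. The points share libraries, groups and scaling, so these values describe the likeness and nothing more. The mean centred level of the 10 genes was 0.11 to 0.23 in soleus controls and 0.09, -0.25, -0.39 and 0.06 in Myc-labelled replicates 1 to 4; in quadriceps it was 0.11 and 0.17 in controls and -0.04 and -0.24 in Myc-labelled libraries. In both muscles the controls lay above the Myc-labelled libraries on this mean, with soleus control replicate 1 and Myc-labelled replicate 1 only narrowly apart.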

How the data were processed

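The deposited tables give a normalised signal per gene. Per the submitters' processing notes STAR 2.7.8a, Partek and DESeq2 were used, in roles not stated, with mm10 and mm39 both named, so no coordinates of the files are given. The division by 1 size factor per library was read from the values: with a step chosen for each library, 90.9% to 93.5% of its values (up to 300 reads) fell within 0.02 of a whole read, and 1 read was worth 0.831 to 1.174. Depth is therefore an estimate.

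Tests used limma 3.58.1 (statmod 1.5.0, R 4.3.3) with its trend and robust options on log2(value + 1), a scale that understates changes of low genes. Genes needed a value of 10 in 3 soleus or 2 quadriceps libraries, which all 10 genes passed in both. No pair of replicates was as close as counting error alone would make it. No label ties libraries to animals, so p-values cover only the variation among the libraries, which may be technical, and the 2 muscles were treated as independent. The fits were checked on simulated data.

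The 10 genes and all lists were chosen with earlier results of these data known. Genes named beside them are the up to 4 (soleus) or 2 (quadriceps) with the smallest p in each list, of which those that bear on the synapse are printed, and the 5 of most similar profile. Prima1's soleus values, shown beside Colq, were chosen after they were seen. Exons of Ache and Rapsn overlap genes on the opposite strand, and Colq a gene on the same strand, in GENCODE M21; strandedness is not given in the sources used here. Tendon, fibroblast, endothelial, macrophage, satellite cell, Schwann and fibre type lists were measured in the same way. Alternatives were other scalings, limma-voom, filters, pseudocounts, no robust moderation, 1 fit over all libraries, a replicate block, and libraries left out. Late-life exercise samples are not analysed here.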

Additional observations from a re-analysis of the deposited data

Results flagged for a closer look

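Of the 10 genes, Dok7 had 1 library far from the others among the 4 Myc-labelled soleus libraries. Replicate 3 held 446 against 624 to 664 in the other 3, a gap of 0.846 of the group's whole range on the log2(value + 1) scale, above Dixon's 95% critical value for 4 values. Chance puts about 1 in 20 such groups over that value, and 10 were examined. Without replicate 3 the soleus change of Dok7 was -0.05 in place of -0.18 (limma adjusted p = 0.87 and 0.50).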

How the results depend on the processing

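Among single genes, 628 alternative values kept their direction and side of the threshold, 32 reversed, 7 passed it newly and 16 no longer passed; among counts of calls, 96 held and 4 moved. Of the 10 genes, 1 was called lower in soleus, Ache, in 1 fit over all 11 libraries, and 1, again Ache, with the replicate block (log2 change -0.64, limma adjusted p = 0.0444). In quadriceps, 0 to 1 was called lower on leaving out a replicate: Musk without Myc-labelled replicate 1 and Dok7 without replicate 2. Rapsn in quadriceps had a log2 change of 0.042 under library-size scaling, and Lrp4 in soleus 0.029 under it and 7.1e-07 under TMM. Without soleus Myc-labelled replicates 3 and 4, Chrnd was 0.072, Musk 0.053 and Rapsn -0.072. The cause was not tested.

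With 1 replicate left out, log2 changes that changed side ran in quadriceps from -0.18 to 0.20 for Ache, -0.36 to 0.70 for Chrnd, -0.24 to 0.42 for Chrne, -0.42 to 0.16 for Colq, -2.15 to 0.23 for Musk, -1.22 to 0.12 for Myc and -0.075 to 0.035 for Rapsn. In soleus they ran from -0.30 to 0.19 for Chrnd, -0.17 to 0.23 for Lrp4 and -0.0055 to 0.10 for Rapsn. For soleus change minus quadriceps change they ran from -0.11 to 0.19 for Chrna1, -0.82 to 0.24 for Chrnd and -0.43 to 1.95 for Musk.

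Same-numbered libraries of the 2 groups were not shown to be pairs. Their deviations correlated at 0.00104 to 0.138 in soleus, where 1 of 3 controls correlated best with its own number, and at 0.144 in quadriceps. The replicate block moved the calls over all genes from 1184 to 1216 in soleus and from 1 to 4 in quadriceps, and the difference between muscles of Chrna1 was then -0.034. In soleus the block also sets aside Myc-labelled replicate 4, which has no control of its number: the blocked changes of Ache and Chrna1 equal those without that library, where the Chrna1 difference is -0.034 too, the adjusted p of Ache is 0.0668 and all soleus calls are 823. Calls over all genes that moved by more than 1.5 times were those lower in soleus, 284, which were 179 under library-size scaling, 168 in 1 fit over all 11 libraries and 117 to 244 with a replicate left out; all soleus calls, 1184, which were 776 to 1015 with one left out and 630 without Myc-labelled replicates 3 and 4; and quadriceps calls, 1, which were 0 under library-size scaling, 94 in 1 fit over all 11 libraries and 3 to 137 with one left out. Differences between muscles, 0, were 4 without robust moderation, 20 with the replicate block and 0 to 17 with a library left out. With 2 libraries a group, the narrowest quadriceps interval among the 10 genes, that of Rapsn, ran from -0.40 to 0.36.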

Other observations

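Endothelial, macrophage and satellite cell markers gave no call by limma in either muscle, where 9.29% of all soleus genes and 0.00815% of quadriceps genes were called. At an unadjusted p under 0.05 there were 1, 1 and 2 genes in soleus, against 21.7% of all genes. In quadriceps there were 0, 0 and 1, against 6.21%. Of all genes, 54.4% lay below control in soleus and 54.2% in quadriceps. In soleus, endothelial markers lay below control on average in 8 of 8 genes, at 926 to 971.6 ppm of the table total in controls and 793.6 to 956.7 in Myc-labelled libraries, and macrophage markers in 8 of 8, at 68.7 to 99.1 and 40.2 to 90.3. In quadriceps the 8 of 8 below control in each list came with a split between libraries. Endothelial markers held 357.5 and 443.8 in controls, 310.9 in Myc-labelled replicate 1 and 451.7 in replicate 2, and macrophage markers 67.6 and 162 in controls, 46.7 in replicate 1 and 127 in replicate 2. Replicate 1 was below both controls for both lists, and replicate 2 was not. Satellite cell markers, which mark the stem cells of muscle, lay above control in 7 of 8 genes in quadriceps (71.9 and 80.5 against 84.4 and 98.9) and in 3 of 7 in soleus.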
